A study of Mus musculus with 143 samples.

Results

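The repressive histone mark H3K27me3 was compared between p20 oocytes that had lost both Dis3 and Exosc10 (dcKO) and p20 control oocytes. The 6 libraries, 3 dcKO and 3 control, were those whose sample titles name the mark, the stage p20 and the genotype, and they are 6 of the 143 samples of the study. The study sequenced RNA of single mouse oocytes and profiled chromatin of pooled oocytes by CUT&Tag, an assay in which an antibody brings a transposase to the mark and the cut DNA is sequenced. Libraries were labelled as bulk oocytes of genotype control or dcKO, at a stage read here as postnatal day 20, when ovaries hold growing oocytes. The labels name neither the Cre driver, the floxed alleles, the strain nor the number of oocytes and females per library, and they do not say whether the controls carry floxed alleles. They say only that mutant mice were made with CRISPR/Cas9, and their CUT&Tag protocol speaks of fresh, unfixed GV oocytes. In bulk libraries, fewer cells with the mark and less mark per cell cannot be told apart. Nothing in the labels says that libraries came from separate females, so a p-value speaks at most for these libraries. Also used were H3K27me3 libraries of adult GV oocytes, from controls and Dis3 knockouts, and RNA libraries of single p20 control and dcKO oocytes. The RNA fit also held p20 oocytes with a knockout of Dis3 alone or of Exosc10 alone.

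H3K27me3 is written by Polycomb repressive complex PRC2, in which EZH2 or EZH1 is the methyltransferase and EED and SUZ12 are core partners. It forms broad domains over silent developmental genes such as the Hox clusters, and in growing oocytes it also covers wide stretches between genes and marks a class of maternally silenced imprinted genes. The nuclear RNA exosome degrades short-lived transcripts from promoters, enhancers and intergenic DNA, and its catalytic subunits include DIS3 and EXOSC10.

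Each library has its own peak list, with a total signal and a maximum signal for each peak. Because starts that lost and starts that gained peak cover in dcKO differed in CG content, 5 promoters are shown: 3 from the starts with the largest loss and 2 from those with the largest gain, picked after their values were seen among protein-coding genes of known function. Each line gives the 250 bases before the gene start from RefSeq (GRCm38.p6), 5′ to 3′ on the gene's strand, with CG pairs in capitals. Gbx2 (chr1:89931177-89931426, minus strand), Evx1 (chr6:52313248-52313497, plus strand) and Prdm16 (chr4:154636874-154637123, minus strand) lost cover, and Dennd1c (chr17:57078499-57078748, minus strand) and Hjurp (chr1:88277580-88277829, minus strand) gained it.
Gbx2: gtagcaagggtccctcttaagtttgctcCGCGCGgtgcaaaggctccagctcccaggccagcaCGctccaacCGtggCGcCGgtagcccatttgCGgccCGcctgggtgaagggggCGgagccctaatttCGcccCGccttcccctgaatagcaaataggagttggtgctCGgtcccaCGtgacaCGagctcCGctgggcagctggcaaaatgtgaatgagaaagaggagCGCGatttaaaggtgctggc
Evx1: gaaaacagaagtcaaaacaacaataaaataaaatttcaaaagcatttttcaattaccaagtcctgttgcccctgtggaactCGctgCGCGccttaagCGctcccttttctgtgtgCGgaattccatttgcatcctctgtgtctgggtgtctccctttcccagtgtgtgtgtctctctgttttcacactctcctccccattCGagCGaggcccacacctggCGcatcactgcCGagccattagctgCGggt
Prdm16: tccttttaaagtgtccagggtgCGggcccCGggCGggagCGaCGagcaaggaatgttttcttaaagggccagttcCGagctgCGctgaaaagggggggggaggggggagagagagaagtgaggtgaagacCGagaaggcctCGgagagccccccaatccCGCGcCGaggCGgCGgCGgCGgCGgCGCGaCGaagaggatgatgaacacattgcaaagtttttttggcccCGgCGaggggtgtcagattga
Dennd1c: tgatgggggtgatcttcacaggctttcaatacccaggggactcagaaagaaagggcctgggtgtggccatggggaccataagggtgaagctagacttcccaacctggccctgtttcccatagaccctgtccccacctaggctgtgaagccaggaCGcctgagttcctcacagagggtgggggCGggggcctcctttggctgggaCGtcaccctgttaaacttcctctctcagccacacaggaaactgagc
Hjurp: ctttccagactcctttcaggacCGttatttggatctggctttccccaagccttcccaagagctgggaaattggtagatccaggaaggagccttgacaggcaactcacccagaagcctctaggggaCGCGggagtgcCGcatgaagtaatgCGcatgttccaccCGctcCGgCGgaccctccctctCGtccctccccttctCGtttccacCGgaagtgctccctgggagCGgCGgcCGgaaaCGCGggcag
The Gbx2, Evx1 and Prdm16 stretches hold 18, 10 and 22 CG pairs, and those of Dennd1c and Hjurp hold 3 and 16. Over all gene starts called lower in dcKO by limma, the median was 12 CG pairs, and 58.5% had at least 10. Over gene starts called higher, the median was 3 and 8.23% had at least 10, beside a median of 6 and 38.5% over the 26793 gene starts used. Those include 6779 starts covered in no library, with a median of 10 and 50.8% with at least 10. Starts tested but not called had a median of 5 and 33.4%. The pair CG reads the same on both strands, so its count does too, and it describes these windows only.

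The dcKO oocytes had more and smaller H3K27me3 peaks than controls, and almost none of the wide ones. On chromosomes 1 to 19 and X, control libraries 1, 2 and 3 held 155707, 151447 and 159791 peaks, and dcKO libraries 1, 2 and 3 held 244555, 278073 and 299417. Every dcKO library lay above every control, by 1.76-fold in the means (log2 difference 0.81). Among peaks at or above a total signal of 1557 the log2 difference was 0.16 and the groups overlapped (exact permutation p = 0.30). Peaks covered 132, 129 and 132 Mb in controls and 165, 193 and 181 Mb in dcKO, a mean difference of 1.37-fold (log2 difference 0.45). This gain in covered length came with peaks of low signal: with that same signal threshold, the log2 difference was -0.07 (exact permutation p = 0.80). The median peak width was 635, 620 and 622 bp in controls and 578, 591 and 535 bp in dcKO, a log2 difference of -0.14 that was 0.15 when the same number of the strongest peaks was kept in every library. For these and the following comparisons of 3 with 3 libraries, groups that did not overlap gave the smallest value the 2-sided exact permutation test allows, p = 0.10.

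The loss was concentrated in the widest peaks. Peaks of at least 10 kb numbered 106, 134 and 72 in controls and 7, 5 and 3 in dcKO. They spanned 1.49, 1.89 and 1.05 Mb in controls and 0.0795, 0.0577 and 0.0330 Mb in dcKO, so the mean length was 26.0-fold higher in controls (exact permutation p = 0.10). Peaks of at least 5 kb numbered 908, 1108 and 779 in controls and 36, 66 and 21 in dcKO. As a share of the summed peak signal they held 11.6, 15.3 and 8.89% in controls and 0.411, 0.447 and 0.198% in dcKO. The 99th percentile of peak width went from 4183 ± 262 bp (SD, n = 3) to 2071 ± 260 bp (n = 3). At the other end, peaks under 500 bp made up 29.9 to 31.9% of control lists and 34.6 to 43.8% of dcKO lists.

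**Figure D1:**
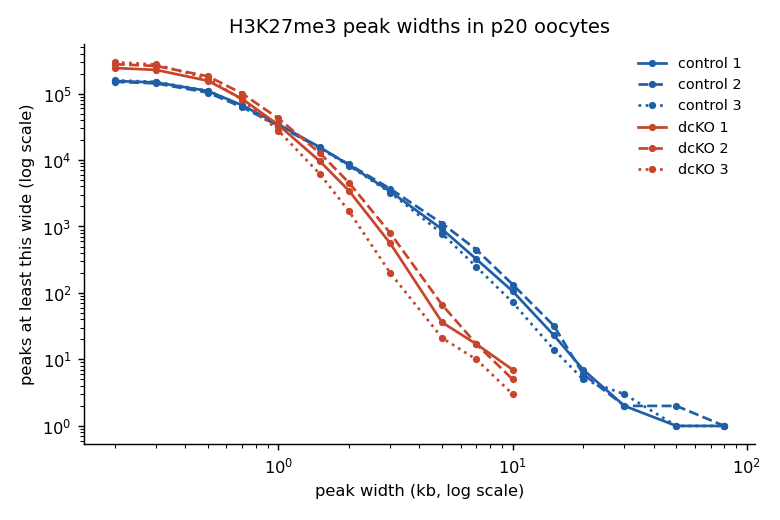
Number of H3K27me3 peaks at least as wide as the value on the horizontal axis (kb, log scale) in each of 3 control (blue) and 3 dcKO (red) p20 libraries, with the vertical axis on a log scale. The dcKO lines start above the controls at narrow widths, cross them near 1 kb and end at the 10 kb point with 3 to 7 peaks, where controls have 72 to 134; the widest control peaks reach 87.6 to 87.8 kb.

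The typical peak of a dcKO list held less signal than that of a control list. The median maximum signal of a peak was 6 in each control and 5, 4 and 4 in dcKO, in the whole-number units of the lists. The median total signal was 2127, 2002 and 2055 in controls and 1527, 1426 and 1178 in dcKO, a log2 difference of -0.59 between groups that did not overlap. Among peaks at or above a total signal of 1557, both log2 differences were -0.34, and the groups did not overlap (exact permutation p = 0.10 for each). With the same number of the strongest peaks in every library, which removes mostly weak dcKO peaks, the log2 difference in median total signal was -0.07 (exact permutation p = 0.60) and that in median maximum signal -0.09 (exact permutation p = 1). The median signal per base stayed lower in every dcKO library in that setting, with a log2 difference of -0.20 beside -0.50 over all peaks (exact permutation p = 0.10 for each). Peaks with a maximum of 10 or more made up 22.8 to 24.2% of control lists and 2.41 to 8.10% of dcKO lists. Peaks with a maximum of 3 or less made up 18.0 to 19.6% and 29.5 to 43.5%. Reads had been sampled to one number per library before peaks were called, so these signals are shares of a fixed read number, and the 6 libraries cannot show whether the total amount of the mark changed. Over all peaks, the signal per covered base was 4.47 to 4.73 in controls and 2.45 to 3.00 in dcKO.

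Within controls, signal per covered base was 3.78 to 3.99 in peaks under 500 bp and lower, at 3.36 to 3.46, in peaks of 500 bp to 1 kb. From there it was higher in each wider class, up to 11.2 to 13.6 in peaks of 10 kb or more. In dcKO the few peaks of 10 kb or more held 4.94 to 6.99 per covered base. The widest control peaks were thus also the densest.

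The fate of wide control peaks was read with one control left out each time, since a domain chosen in a control is covered there by choice. Peaks of at least 10 kb found in 2 controls (39 to 49 in number) were covered over 96.7 to 98.9% of their length in the control left out. The same stretches were covered over 47.6 to 54.4% in the mean of the dcKO libraries, lower for all of them in each of the 3 rotations. For peaks of at least 5 kb (316 to 463) the values were 93.9 to 97.5% in the control left out and 44.7 to 49.7% in dcKO. Part of each set of stretches thus still lay under peaks in dcKO. Beside this, the genome was covered over 5.01 to 5.14% in the controls left out and 6.99% in dcKO.

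When peaks were joined over gaps of up to 5 kb into domains of at least 50 kb, the groups no longer separated. Joined domains spanned 49.1, 49.9 and 49.4 Mb in controls and 38.3, 70.3 and 61.4 Mb in dcKO (exact permutation p = 0.70). Inside them, peaks filled 53.6 to 54.5% of the length in controls and 35.5 to 41.1% in dcKO. The span depended on the joining: with gaps of up to 1 kb the log2 difference was -2.53, and every dcKO library lay below every control, and with gaps of up to 10 kb it was 0.95, with every dcKO library above (exact permutation p = 0.10 for each). With gaps of up to 5 kb the log2 difference was 0.15 over all libraries and -0.03 without dcKO 2. Domains of at least 50 kb shared by 2 controls (394 to 411) were covered over 57.7 to 58.9% in the control left out and 38.2 to 38.6% in dcKO, and 97.5 to 98.5% of them were lower in dcKO.

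The 4 Hox clusters, which encode the transcription factors that pattern the body axis, were covered less in dcKO, and by peaks of lower signal. The Hoxa cluster (chr6:52155367-52260880, 11 genes) was covered over 87.3, 92.0 and 87.9% in controls and 26.8, 26.5 and 23.4% in dcKO. Its widest peak measured 9.44, 18.5 and 12.6 kb in controls and 1.76, 2.28 and 1.74 kb in dcKO. Each dcKO library still had 39 or 40 peaks there, beside 27 to 35 in controls. The peaks that touch Hoxa spanned 92.6, 98.2 and 92.8 kb in controls and 28.2, 27.9 and 24.7 kb in dcKO. Their mean signal per base was 12.1, 12.8 and 9.68 in controls and between 2.7 and 3.49 in dcKO. Peaks were called in each library separately, so stretches without a peak add nothing to these values. For the peaks of Hoxb, Hoxc and Hoxd, mean signal per base was 7.48 to 10.7 in controls and 2.68 to 3.13 in dcKO. Cover of the Hoxb, Hoxc and Hoxd clusters was 66.0 ± 0.659%, 73.5 ± 4.94% and 79.6 ± 2.13% in controls, and 24.0 ± 5.68%, 30.1 ± 4.51% and 27.3 ± 3.18% in dcKO (SD, n = 3 in each group). The 4 clusters thus reached a similar, low cover in dcKO from unlike levels in controls.

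Single developmental genes outside the Hox clusters were covered less in dcKO. Pax6, a regulator of eye and brain development, had a widest peak of 19.5, 8.14 and 11.7 kb in controls and of 1.12, 1.23 and 0.868 kb in dcKO. Its gene body was covered over 79.9, 82.4 and 67.8% in controls and 4.30, 25.3 and 16.6% in dcKO, by peaks with a mean signal per base of 10.3 to 13.8 and 1.61 to 3.40. The gene body of Pax7, a regulator of muscle and neural crest progenitors, was covered over 65.2, 69.1 and 67.7% in controls and 43.9, 36.9 and 26.2% in dcKO. Sim2 and Lhx6 encode transcription factors of the nervous system, and their gene bodies were covered over 70.6 to 71.1% and at least 89.2% in controls and 40.7 to 46.6% and 44.6 to 59.2% in dcKO. Cdx2, a regulator of trophoblast and hindgut, was covered over 93.0 to 100% in controls and 33.9 to 57.2% in dcKO. The gene bodies of Foxd3 and Gsc, regulators of neural crest and of the gastrula organizer, were covered over 75.8 to 82.8% and 88.4 to 94.3% in controls and held no peak in any dcKO library.

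**Figure D2:**
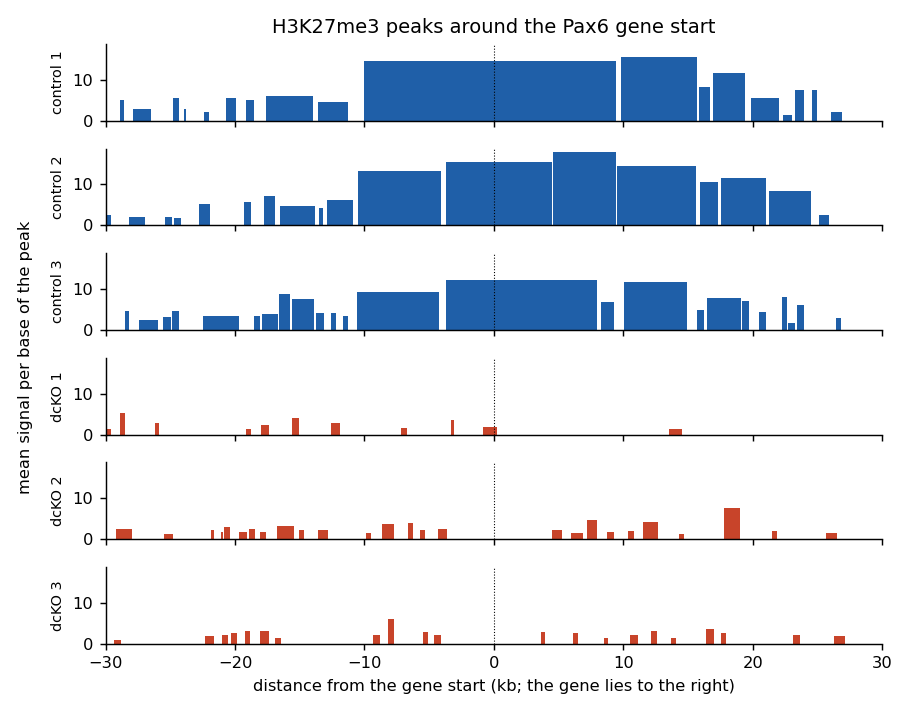
H3K27me3 peaks within 30 kb of the Pax6 gene start in 3 control (blue) and 3 dcKO (red) libraries. Each bar spans 1 peak along the distance axis (kb) and its height is the peak's mean signal per base; controls show wide, high peaks over the start, and dcKO libraries show scattered narrow, low ones.

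The widest peak of every control lay elsewhere, over an array of 48 ribosomal RNA genes on chromosome 8 (chr8:123538784-123622046), annotated as n-R5s genes. It was 1 peak of 87.8, 87.6 and 87.7 kb in controls 1, 2 and 3. In dcKO the array was covered over 62.7, 33.5 and 16.8% by 47, 42 and 30 peaks, none above 4.15 kb. Mean signal per base of the peaks over it was 17.6, 19.3 and 12.1 in controls and 1.92, 1.62 and 1.47 in dcKO. Another wide peak in every control, 22697, 18999 and 20831 bp long, lay over 15 tRNA genes and Fcgr3 on chromosome 1. Around the middles of 408 tRNA genes, 10 kb windows were covered over 11.1, 12.1 and 11.5% in controls and 4.69, 6.97 and 7.47% in dcKO. Repeated copies share sequence, and how reads that fit several copies were placed is not given in the sources used here, so these values are less certain than those at single-copy genes.

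Gene starts were then tested one by one. For each of 26793 gene starts with a RefSeq promoter entry (chromosome 18 was not analysed here), the percentage of the surrounding 10 kb under peaks was computed, and the 20014 starts covered in at least 1 library were fitted with limma (Benjamini-Hochberg adjusted p under 0.05). In dcKO, 1821 starts (9.1%) were lower and 1021 (5.1%) were higher, and the groups did not overlap for 2569 lower starts (12.8%) and 2772 higher starts (13.9%). Leaving out 1 library gave 737 to 1402 lower and 174 to 918 higher starts, and most of these counts were over 1.5 times below the full fit. Lower starts numbered 1105 without control 2, and 935, 993 and 737 without dcKO 1, 2 and 3. Higher starts numbered 312, 174 and 242 without controls 1, 2 and 3, and 645 without dcKO 1. With the stricter signal threshold, 231 starts were higher. The fit shares its spread over starts, and SEs were close to 8.5 points at starts well covered in controls, whatever their own SD. Mirc35hg, with SDs of 1.41 and 3.95, had an SE of 8.48, and Gata2, with SDs of 1.24 and 21.7, one of 8.47. Very small limma p-values at single starts thus rest on that shared spread, not on 3 against 3 libraries alone.

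All 22 Hox gene starts tested were lower in dcKO, beside 9.1% of all starts tested. That background is unlike the Hox starts, since the median control cover over all starts tested was 3.50%, which left most of them little to lose. Their median cover was 86.4% in controls and 20.7% in dcKO, and groups did not overlap for 21 of the 22. The exception, Hoxc4, had 0, 33.2 and 23.6% in controls and 0, 8.03 and 0% in dcKO, and its call was lost in 10 alternatives, such as without a filter (limma adjusted p = 0.11). Hoxa5 was covered over 92.7, 98.6 and 96.4% in controls and 28.7, 14.5 and 26.7% in dcKO, a difference of -72.6 points (SE 8.50, limma adjusted p = 3.5e-15). Neighbouring Hox starts share parts of their windows and are not independent. Without dcKO 3, 16 of the Hox starts were called. The other 17 Hox genes had no start used here, and over whole genes with 5 kb on each side, an alternative chosen after the data were seen, 36 of 39 Hox genes were lower, beside 4.03% lower and 3.63% higher of the 41491 genes tested that way.

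All 40 starts tested among 60 other developmental transcription factors were lower, and for all 40 every dcKO library lay below every control. Their median cover was 90.6% in controls and 29.8% in dcKO, where the median over all starts tested was 3.50% and 8.32%. The smallest difference, -34.2 points, was at Pax8, a regulator of thyroid and kidney, and the largest, -89.5 points, at Gsc. The start of Gsc was covered over 93.8, 96.5 and 78.2% in controls and in no dcKO library (adjusted p = 5.7e-23, limma). Gata2, a regulator of blood progenitors, had the highest mean cover in dcKO, close to that of Tbx20 (48.98 and 48.29%), though not the highest share of its control cover. It was covered over 97.2, 98.8 and 96.4% in controls and 66.3, 56.0 and 24.7% in dcKO, a call that was lost without dcKO 2 (limma adjusted p = 0.13). Leaving out dcKO 3 left 32 of the 40 called. The list was chosen with results of these data known, so its direction is a description.

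**Figure D3:**
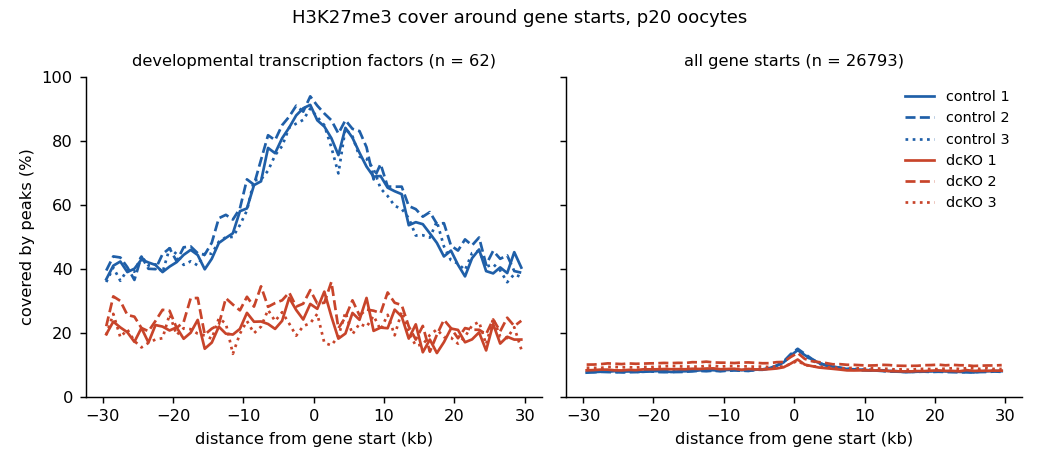
Percentage of each 1 kb bin covered by H3K27me3 peaks against the distance from the gene start (kb), for 62 Hox and other developmental transcription factor starts (left) and all 26793 starts (right), with 1 line for each control (blue) and dcKO (red) library. Controls rise from about 40.9% upstream to 90.1% within 1 kb of developmental starts, and dcKO lines lie between 13.5 and 35.9% in every bin.

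Around those 62 starts peak cover was lower in dcKO over the whole 60 kb shown rather than at the start alone. Between 20 and 30 kb upstream, mean cover was 40.5, 41.9 and 40.3% in controls and 20.6, 25.4 and 19.7% in dcKO. Within 1 kb of the start it was 88.9, 92.5 and 88.9% in controls and 28.3, 31.3 and 24.5% in dcKO. Over all gene starts, cover 20 to 30 kb upstream was higher in every dcKO library (8.41, 10.3 and 9.20%, beside 7.85, 7.76 and 7.87% in controls). Within 1 kb of all starts it was lower in every dcKO library, with a mean of 11.6% beside 13.9% in controls.

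The 10 starts with the largest loss came from 5 neighbourhoods. Gbx2, a homeobox gene of the midbrain-hindbrain boundary, shares its window with the oppositely oriented LOC102637806, and both were covered over 97.6, 96.0 and 92.6% in controls and 0, 6.77 and 0% in dcKO. Evx1, a homeobox gene beside the Hoxa cluster, and its neighbour Evx1os went from 89.1, 98.0 and 93.9% to 0, 5.56 and 0%. Prdm16, a regulator of brown fat and blood stem cells, stood with Prdm16os and 5930403L14Rik at 93.4, 95.8 and 89.8% for Prdm16 in controls and 0, 3.86 and 0% in dcKO. The remaining starts were the noncoding genes Mirc35hg and BB283400 on chromosome 6 and Gm33746 on chromosome 8. Mirc35hg had the largest loss of all, from 100, 100 and 97.6% to 0, 0 and 6.85% (-96.9 points, SE 8.48, limma adjusted p = 6.3e-26). The call for all 10 held in each alternative run.

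Like the 10 largest losses, the 10 starts with the largest gain hold no member of the lists of developmental regulators. The noncoding Gm33862 rose most, from 25.1, 21.6 and 29.2% in controls to 89.8, 79.9 and 93.9% in dcKO (62.5 points, SE 8.50, limma adjusted p = 2.0e-11). Hjurp, the chaperone that loads the centromeric histone CENP-A, was covered over 12.5, 2.86 and 0% in controls and 53.5, 33.2 and 52.3% in dcKO. Mroh2a lies close to Hjurp on chromosome 1 and went from 4.48, 0.88 and 4.31% to 46.8, 36.4 and 49.1%. Dennd1c, which encodes an activator of Rab GTPases, went from 0, 12.4 and 8.29% to 58.4, 49.4 and 41.2%. The start of Pramel43, a member of a multicopy gene family, held no peak in any control and was covered over 32.0, 41.8 and 49.7% in dcKO. The other gains were at Gm34554, Gm21190, Gm35992, Gm17455 and 3110040M04Rik. Gained starts reached less cover than lost starts had in controls, and the calls at Hjurp, Dennd1c, Gm34554 and Gm35992 ended when 1 dcKO library was left out (limma adjusted p = 0.050 to 0.10).

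Genes imprinted through maternal H3K27me3, silent on the maternal copy in embryos, changed in part. Of the 9 starts tested, 5 were lower, beside 9.1% of all starts, and 4 were not called. Otx2, a head-patterning gene, had 91.6, 87.0 and 82.7% in controls and 37.5, 17.7 and 27.1% in dcKO. Sfmbt2, a Polycomb gene needed in the placenta, had 72.9 ± 2.22% and 26.0 ± 4.91% (SD, n = 3), with no overlap. Jade1, Runx1 and Etv6 were lower by 26.6, 26.0 and 24.8 points, and the groups overlapped at Etv6. Their calls were lost with windows of 2.5 kb on each side and when single libraries were left out: 2 of the 9 starts were called without control 2, control 3, dcKO 2 or dcKO 3, and 3 without dcKO 1. Gab1 had means of 30.2% in controls and 24.4% in dcKO, and Xist of 38.9% and 30.4%, with groups that overlapped for both. Slc38a4 and Rbms1 had little cover in either group, at most 11.5% in any library.

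Among 8 starts tested of genes imprinted through maternal DNA methylation, Grb10 and Gnas were lower, 2 of 8 beside 9.1% of all starts tested. Grb10, a growth inhibitor, had 61.7, 69.9 and 45.6% in controls and no cover in dcKO, and Gnas, a signalling G protein, had 51.0, 60.7 and 31.7% and then 0, 0 and 13.3%. The call at Gnas was lost without any 1 of the dcKO libraries (limma adjusted p = 0.075 to 0.12). The other 6, such as Peg3 and Snrpn, were below 15% in every library. Starts of genes that oocytes use had little cover in most libraries. Of 13 oocyte gene starts used, 4 had no peak in any library and 9 were tested, with group medians of 1.18% in controls and 2.18% in dcKO. Among these, 1 was called higher, beside 5.1% of all starts tested. It was Zp3, a zona pellucida protein, with no cover in controls and 0, 19.5 and 36.5% in dcKO. That call rests on dcKO libraries 2 and 3 and was lost in 8 alternatives, among them each fit with 1 library left out. The next highest values were 28.5% at Sohlh1 in dcKO 2 and 25.4% at Kit in control 2, and neither start was called. Over whole genes with 5 kb on each side, 2 of 16 oocyte genes were lower and 0 higher. Beside this, 4.03% of all genes tested that way were lower and 3.63% higher. None of the 8 housekeeping starts tested was called by limma, with group medians of 0.453% and 1.07%, and 0 of them had an unadjusted p under 0.05. None of the 6 tested starts of PRC2 and H3K27 demethylase genes was called either, also with 0 at an unadjusted p under 0.05. Control means were at most 3.65% at the housekeeping starts and 2.64% at these 6, which left little cover to lose.

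Of 9 granulosa cell marker starts tested, Inha and Foxl2 were lower in dcKO, 2 of 9 beside 9.1% of all starts tested. The median difference over the list was 1.17 points. Of the 7 starts that were not called, Cyp11a1, Nr5a2, Inhba and Kitl had higher mean cover in dcKO by 8.42 to 12 points, each with an unadjusted p under 0.05 (limma adjusted p = 0.065, 0.10, 0.13 and 0.16), and the groups did not overlap at Kitl. Foxl2, which specifies granulosa cells, had 76.8, 75.8 and 60.3% in controls and 38.1, 45.5 and 45.6% in dcKO. Both calls were lost without control 1 and without each dcKO library, and that of Foxl2 also without control 2. The part of granulosa cells in the pools in these results was not tested. In the single-oocyte RNA libraries of p20, 12 granulosa markers summed to 121 to 178 CPM in controls and 132 to 207 CPM in dcKO, with Foxl2 at a median of 0.439 CPM in controls and 0 in dcKO. Of the 8 granulosa markers with an RNA test, Cyp19a1, which encodes aromatase, was lower, with means of 28.6 and 4.67 CPM (log2 change -2.61, edgeR adjusted p = 1.3e-08). The nuclear receptor gene Nr5a2 was higher, with means of 82.1 and 120 CPM (log2 change 0.55, edgeR adjusted p = 2.1e-04), a call that ended with ERCC scaling (adjusted p = 0.077). These values describe the RNA libraries, not the pools used for the mark. The 20 oocyte genes summed to 16046 to 20536 CPM and 20994 to 25619 CPM. Over 4 markers of other ovarian cells, the sums were 48.4 to 75.8 CPM and 28.1 to 47.7 CPM. These sums are not TMM-scaled. Pecam1, an endothelial gene in that list, had TMM-scaled means of 67.7 and 35.6 CPM, while Col1a1 had medians of 0.0602 CPM in controls and 0 in dcKO and Ptprc a median of 0 in both.

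Across the genome, windows with little peak cover in controls gained cover and windows rich in it lost cover. Of 25422 windows of 100 kb covered in at least 1 library, 1292 (5.08%) were lower in dcKO and 12186 (47.9%) higher by limma (Benjamini-Hochberg adjusted p under 0.05). Groups did not overlap for 1598 lower (6.29%) and 13500 higher windows (53.1%). The higher count fell to 1817 with the stricter signal threshold, and to 8110, 7300 and 7978 without controls 1, 2 and 3. Windows sorted by their cover in control 1 alone show the pattern in libraries not used for sorting. Where control 1 had under 1%, controls 2 and 3 had 0.391 and 0.458% and dcKO libraries 2.03, 2.53 and 2.80%. Where control 1 had 40% or more (326 windows), controls 2 and 3 had 49.7 and 48.6% and dcKO libraries 32.8, 36.7 and 30.3%. Between 10 and 20% the groups were close, at 13.7 and 14.1% in controls 2 and 3 and 14.3, 16.5 and 14.6% in dcKO.

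**Figure D4:**
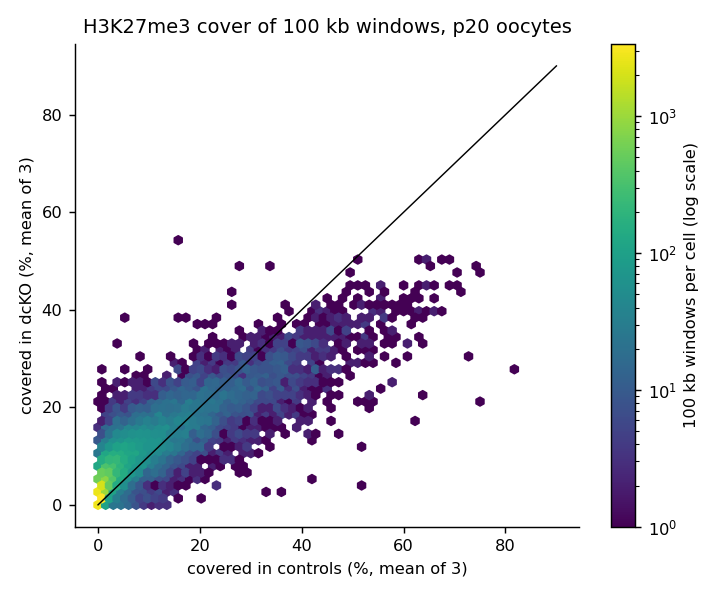
Percentage of each 100 kb window covered by H3K27me3 peaks, mean of 3 controls (horizontal) against mean of 3 dcKO libraries (vertical), for 25422 windows; colour gives the number of windows per cell on a log scale and the line marks equal cover. Windows with low control cover sit above the line and windows with high control cover sit below it.

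The 3 windows with the largest loss held clustered genes. The Hoxc window on chromosome 15 (102.9 to 103 Mb, Hoxc6 and Hoxc8 to Hoxc13) fell by 54.5 points, from 82.3 ± 4.26% to 27.7 ± 3.10% (SD, n = 3, limma adjusted p = 5.4e-06). The Hoxa window on chromosome 6 (52.2 to 52.3 Mb, Hoxa3 and Hoxa5 to Hoxa13) went from 75.2 ± 4.59% to 21.7 ± 4.47%. The window on chromosome 3 at 96.3 to 96.4 Mb, with 9 tRNA and 3 small nuclear RNA genes and no protein-coding gene, went from 52.5 ± 3.33% to 4.37 ± 1.66%. The largest gain, from 16.1 ± 1.48% to 53.6 ± 2.45%, was on chromosome 11 at 3.1 to 3.2 Mb, a window with the centrosomal gene Sfi1. That window also holds Gm33862, the start with the largest gain. The next were adjoining windows on chromosome 10 over Cdh23, Vsir, Gm17455 and, in the first, Psap. They rose from 5.61 ± 0.954% to 38.7 ± 0.404% and from 4.24 ± 1.03% to 32.8 ± 4.91%. Gm17455 is also among the starts with the largest gain, so these window and start results describe the same loci.

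Covered length was also spread over more windows in dcKO. Windows with at least 1 peak made up 70.3, 69.2 and 71.9% of all 26323 in controls and 88.1, 90.1 and 92.9% in dcKO. This mean difference of 19.9 points was 10.3 points with the same number of the strongest peaks in every library (exact permutation p = 0.10). The densest 10% of windows held 55.2, 57.1 and 55.2% of the covered length in controls and 37.2, 36.8 and 33.6% in dcKO. The median window was covered over 1.07 ± 0.0869% in controls and 4.14 ± 0.432% in dcKO. Windows covered over 30% or more numbered 875, 904 and 857 in controls and 356, 691 and 283 in dcKO. This depended on the cut. For 20% the numbers were 1891, 1869 and 1899 in controls and 1609, 2389 and 1698 in dcKO, and the groups overlapped.

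Peaks away from genes made up more of the covered length in dcKO. The 10 kb windows at gene starts, 9.23% of the genome, held 20.02 ± 0.448% of covered length in controls and 13.9 ± 0.606% in dcKO (SD, n = 3, exact permutation p = 0.10). Sequence outside genes and these windows, 49.3% of the genome, held 35.3 ± 0.509% in controls and 45.4 ± 1.02% in dcKO. The dcKO shares were thus nearer to those of the genome than the control shares were. Of windows called higher, 54.2% held no gene start, as did 22.2% of windows called lower and 48.6% of all (chromosome 18 left out). Around pseudogenes cover rose from 4.41 ± 0.181% to 7.39 ± 0.582%, and around miRNA genes it fell from 9.76 ± 0.200% to 8.13 ± 0.760%, with no overlap of groups in either class. Cover also rose around small nuclear RNA genes (means 4.02 and 5.87%) and small nucleolar RNA genes (4.31 and 6.33%), with no overlap. It rose too around miscellaneous RNA genes, transcribed pseudogenes, V segments and V segment pseudogenes, and fell around rRNA and tRNA genes, with no overlap. Of the 63 rRNA genes, 48 form the chromosome 8 array described above, so that fall rests mostly on 1 repeated locus. Around protein-coding genes, lncRNA genes and J segments the groups overlapped.

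All but 1 of 20 chromosomes were covered more in every dcKO library than in every control. Ratios of the means ran from 1.08-fold on chromosome 11 to 1.81-fold on chromosome X. Chromosome 11, the most covered in controls (8.44, 8.37 and 8.50%), was the exception, with 8.23, 9.97 and 9.01% in dcKO. Chromosome X, the least covered in controls, went from 2.16, 2.14 and 2.22% to 3.53, 4.10 and 4.20%, and its share of covered length went from 2.78 ± 0.0370% to 3.68 ± 0.182% (SD, n = 3, exact permutation p = 0.10). Chromosomes 10, 1 and 13 followed, with ratios of 1.76, 1.67 and 1.62. As a share of the library's covered length, 8 chromosomes were higher in dcKO, 8 lower and 4 overlapped. Peaks of at least 5 kb were fewer in every dcKO library than in every control on each of the 20 chromosomes, such as chromosome 2, with 115, 128 and 85 in controls and 1, 4 and 4 in dcKO. Summed over the dcKO libraries, chromosome 6 had the most (11, 11 and 1), while in dcKO 3 chromosome 2 had the most, and most of the widest of those in dcKO 1 and 2 lay in a stretch without protein-coding genes where controls also had wide peaks.

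**Figure D5:**
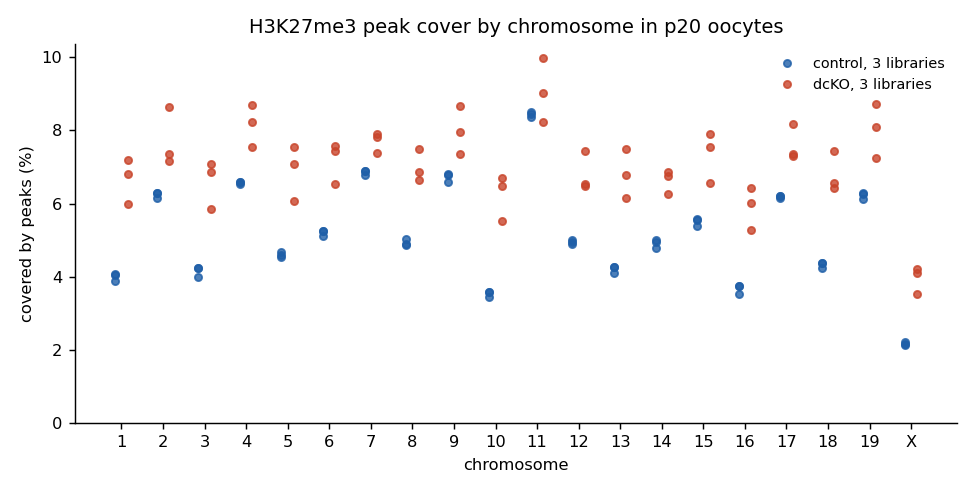
Percentage of each chromosome covered by H3K27me3 peaks, with 1 point per library (3 control, blue; 3 dcKO, red). The dcKO points lie above the control points on every chromosome but chromosome 11, where they overlap.

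The dcKO libraries resembled each other less than controls did. The share of covered bases common to 2 libraries, over the bases covered in either (Jaccard index), was 0.299 to 0.306 within controls, 0.154 to 0.177 within dcKO and 0.152 to 0.186 between the groups. Pairs share libraries, so no test was made. Wide and narrow peaks differed in this. Control peaks under 500 bp were covered over 24.3 to 25.1% in other controls and 24.3 to 24.6% in dcKO, while those of 2 to 5 kb were covered over 74.4 to 76.3% and 44.9 to 47.3%. Narrow dcKO peaks under 500 bp recurred less, over 19.1 to 21.4% in other dcKO libraries and 15.4 to 17.0% in controls.

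In adult GV oocytes, which are fully grown and arrested before meiosis resumes, 3 libraries of Dis3 knockout alone and 3 controls gave a separate view of the same regions. Adult control 2 stood apart, with 202546 peaks beside 98100 and 87323 in controls 1 and 3. The knockouts and stages differ together and cannot be told apart. All 22 Hox starts and all 40 other developmental starts had lower mean cover in adult knockouts, with or without control 2. Hox starts averaged 56.7, 89.4 and 66.9% in adult controls and 28.6, 21.6 and 21.9% in adult knockouts. Of the 1821 starts called lower at p20, 79.8% were lower in adult knockouts (71.0% without adult control 2), beside 29.6% of all starts tested (15.9%). Of the 1021 called higher at p20, 81.3% were higher in adults, beside 53.5% of all. The log2 effect on covered length was 0.45 at p20 and 0.88 in adults, and the difference between stages, -0.43, gave p = 0.41 (exact permutation within stage, 400 regroupings). That difference was -0.66 with p = 0.04 under the stricter signal threshold. Effects on median width (difference -0.07, p = 0.51) and on length in peaks of at least 10 kb (difference 0.37, p = 0.90) did not separate by the same test.

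RNA of single p20 oocytes, 8 dcKO and 8 control libraries from other oocytes, was read beside the mark. Their titles number each group as 2 sets of 4, and if a set is 1 female, p-values over oocytes are too small. The targeted genes were lower in dcKO: Dis3 ranged from 6.27 to 20.1 CPM (median 13.9) in controls and from 1.73 to 4.35 CPM (median 2.72) in dcKO, and Exosc10 from 103 to 137 CPM (median 118) and from 3.14 to 14.8 CPM (median 4.92). The groups did not overlap for either gene. By edgeR's quasi-likelihood test (Benjamini-Hochberg adjusted p under 0.05), 26.6% of 15882 genes were higher in dcKO and 27.1% lower. With ERCC scaling the counts were 2833 and 3238, beside 4231 and 4300.

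RNA of several PRC2 genes was lower in dcKO. Of 13 genes of PRC2 and the H3K27 demethylases tested, 8 were lower and none higher, beside 27.1% and 26.6% of all genes, and 5 were lower with ERCC scaling. Ezh2, the main methyltransferase, ranged from 443 to 533 CPM (median 482) in controls and from 166 to 382 CPM (median 289) in dcKO, with no overlap (log2 fold change -0.78, SE 0.12, edgeR adjusted p = 1.9e-06). Suz12 ranged from 656 to 992 CPM (median 759) and from 329 to 580 CPM (median 446), a log2 change of -0.83 (edgeR adjusted p = 2.2e-07). Eed changed by -0.37 and Aebp2, an accessory subunit, by -0.75 on the log2 scale. Kdm6b, a demethylase that removes the mark, was lower too, from 501 to 695 CPM (median 621) to 207 to 483 CPM (median 324), a log2 change of -0.91. Jarid2, Rbbp4 and Rbbp7 changed by -0.46, -0.27 and -0.23, calls that ended with ERCC scaling (adjusted p = 0.078, 0.083 and 0.14), and Ezh1 (-0.07) and Kdm6a (-0.13) were not called. Of the other accessory subunits, Mtf2 (-0.16), Phf1 (-0.13) and Phf19 (0.32) were not called either (edgeR adjusted p = 0.33, 0.32 and 0.25).

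Genes that lost peak cover at their start had RNA changes close to the background. Of 1821 starts called lower, 600 belonged to genes with an RNA test, and 142 of these (23.7%) were higher and 154 (25.7%) lower in RNA, beside 26.4% and 27.3% of all 6849 covered starts with an RNA test. Their median log2 change was 0.06, beside -0.0025 over all. Of 1021 starts called higher, 153 had an RNA test, and 18 (11.8%) were higher and 62 (40.5%) lower, with a median log2 change of -0.63. With ERCC scaling these were 8 and 57. These shares are descriptions, with no test of the difference.

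Genes imprinted through maternal H3K27me3 had low RNA levels in both groups. Of the 6 with an RNA test, 5 were higher and none lower, beside 26.6% and 27.1% of all genes, and 2 were higher with ERCC scaling. Of those whose starts were called lower in the mark, Jade1 had medians of 0.132 and 0.918 CPM (log2 change 2.60, edgeR adjusted p = 0.020), Sfmbt2 of 0.274 and 1.12 CPM (1.82, adjusted p = 0.047) and Etv6 of 2.21 and 4.07 CPM (0.90, adjusted p = 0.024). These 3 calls ended with ERCC scaling (edgeR adjusted p = 0.053, 0.099 and 0.14), and those of Jade1 and Sfmbt2 also with the replicate block (adjusted p = 0.054 and 0.12). Without a filter on low counts the calls of Sfmbt2 and Etv6 ended (adjusted p = 0.10 and 0.076). Gab1, whose start was not called, had medians of 1.49 and 4.35 CPM (log2 change 1.95, edgeR adjusted p = 0.0024), and Smoc1 of 0.784 and 2.21 CPM (2.26, adjusted p = 0.020), which was lost with the replicate block (adjusted p = 0.076). Rbms1 was not called (log2 change -0.18, edgeR adjusted p = 0.84).

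Among the Hox genes, 13 had an RNA test, and 5 were higher and none lower, beside 26.6% and 27.1% of all genes. With ERCC scaling 4 were higher. They stayed at low levels, such as Hoxd1, with a median of 0.496 CPM in controls and 3.81 CPM in dcKO (log2 change 3.07, SE 0.83, edgeR adjusted p = 0.0021), Hoxb4 (0.276 and 1.57 CPM) and Hoxa10 (0.156 and 1.67 CPM). The other developmental transcription factors had 3 higher and 6 lower of 24, beside the same background. Gsc, with no peak at its start in dcKO, ranged from 1.41 to 6.37 CPM (median 3.31) in controls and from 4.72 to 12.7 CPM (median 8.70) in dcKO (log2 change 1.40, edgeR adjusted p = 5.4e-04). Gbx2 and Prdm16, among the largest losses of peak cover, were lower in RNA, by 0.56 and 1.15 on the log2 scale. Gbx2 had medians of 239 and 171 CPM, and Prdm16 of 110 and 46.8 CPM. Evx1, at medians of 44.8 and 55.3 CPM, was not called (log2 change 0.36, edgeR adjusted p = 0.17). The antisense Evx1os was higher, at medians of 0.142 and 2.95 CPM (log2 change 3.19, SE 0.97, edgeR adjusted p = 0.0060), and no source used here says that counting was stranded, so its reads cannot be told from those of Evx1. Hjurp, whose start gained peak cover, was higher in RNA, with medians of 571 and 1068 CPM (log2 change 0.90, SE 0.14). Dennd1c, whose start also gained peak cover, was lower in RNA, with medians of 1.78 and 0.468 CPM (log2 change -1.64, SE 0.58, edgeR adjusted p = 0.017). That call ended without a filter on low counts (edgeR adjusted p = 0.051).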

How the data were processed

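H3K27me3 was profiled by CUT&Tag in 3 control and 3 dcKO p20 libraries of pooled mouse oocytes. Per the labels and the series' design text, the authors sampled reads to the same number per library without removing duplicates. The deposited peak lists hold, per library, peak positions, a total signal and a maximum signal, each a signal in whole numbers, and no peak has a maximum signal under 2. SEACR and the build mm10 are named in the submitters' processing notes, and the aligner, the peak threshold and the use of an IgG control are not given in the sources used here. An IgG group was not analysed here. Depth beyond the sampled number is unknown, so no counting interval is given. The authors deposited RiboMinus RNA data as whole-number read counts per gene, with 8492102 to 23801344 gene counts in the 32 p20 libraries, and 0% of counts in rows that name no gene. Their use of strand is not stated, so overlapping and antisense genes cannot be separated.

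Chromosomes 1 to 19 and X were used. Library values were compared by 2-sided exact permutation tests (20 regroupings), on the log2 scale for counts, lengths, widths and signals, with 0.01 Mb added to lengths that can be 0. Covered percentages of 100 kb windows and of gene start windows were fitted with limma 3.58.1 (trend, robust) in R 4.3.3. RNA counts of the 4 p20 groups (control, dcKO, Dis3 knockout and Exosc10 knockout) were fitted together with edgeR 4.0.16 (TMM, filterByExpr). DESeq2 1.42.0 served as an alternative. Overlaps and tables used Python 3.11.15. On simulated data for the gene start fit, shifts of 30 points were recovered in 147 of 200 starts with 25 false calls in 172 when each start kept its own noise, and in 185 of 200 with 3 false calls with noise from the mean trend. Shifts of 15 points were recovered in 0 and 13, so smaller changes at gene starts would mostly not be called. For windows, 200 of 200 shifts of 30 points were recovered with 3 false calls.

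Gene starts and symbols came from RefSeq (GRCm38.p6), and 99.4% of RNA gene IDs matched a symbol. Named genes were the 10 largest falls and 10 largest rises among called starts with groups that did not overlap, 3 windows each way, and genes of the lists (Hox, other developmental transcription factors, imprinted, oocyte, housekeeping, PRC2, cell markers). The members and lists were chosen with earlier results of these data known. Wide single regions and gene classes were added after their values were seen. Alternatives were stricter signal, equal peak numbers, other widths, gaps, windows and filters, leaving out each library, a replicate block, and other RNA scalings.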

Additional observations from a re-analysis of the deposited data

Results flagged for a closer look

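Peaks on chromosome Y, outside the chromosomes compared above, numbered 272, 268 and 299 in dcKO libraries 1, 2 and 3, above the 111, 88 and 104 of the control libraries. The adult knockouts held 259, 265 and 278 such peaks, and the adult controls 90, 82 and 71. The cause was not tested. The dcKO lists hold more peaks in all, and chromosome Y made up 0.0963 to 0.111% of dcKO peaks and 0.0581 to 0.0712% of control peaks.

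Among the genes with an RNA test that are named above with RNA values, 8 values in groups of 8 libraries stood apart from the nearest library by more than Dixon's limit. They were the highest control of Jarid2 (450 CPM), the highest control of Gsc (6.37 CPM), the highest dcKO library of Hoxd1 (16.2 CPM), the highest control of Hoxa10 (1.35 CPM), the highest control of Evx1os (1.69 CPM), the lowest control of Phf1 (224 CPM) and the highest dcKO libraries of Jade1 (7.59 CPM) and Smoc1 (29.0 CPM). Chance alone gives about 1 such group in 20, and whether 8 is more than chance gives over the groups searched was not tested.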

How the results depend on the processing

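With the stricter signal threshold and with equal peak numbers per library, the log2 difference in covered length turned to -0.068 and -0.087, and that in median width to 0.0074 and 0.15. The log2 difference in joined domains turned to -2.17 and -1.78 in these settings, to -2.53 with gaps up to 1 kb and to -0.36 from 100 kb, and ranged from -0.028 to 0.41 with 1 library left out. The stage difference in covered length became -0.66 under the stricter threshold (exact permutation within stage, p = 0.04). With 1 library left out it ranged from -0.80 to -0.20. In the same way, the stage difference in median width ranged from -0.10 to -0.013 and that in wide length from -1.03 to 1.18. The dcKO deficit over held-out domains was -16.4 points from 20 kb, -41.7 with gaps of 1 kb and -11.3 with gaps of 10 kb. The ratio of library overlap, 1.84, became 1.27 by any shared base and 1.45 when at least 50% of a peak had to be shared, and ranged from 1.71 to 1.97 with 1 library left out. Windows called higher numbered 3608 from a mean of 5% cover and 1817 with the stricter threshold, and 7300 to 13160 with 1 library left out. Gene starts called higher numbered 524 without a filter, 231 with the stricter threshold and 358 with 2.5 kb on each side. With 1 library left out they numbered 174 to 918, and lower starts 737 to 1402. The causes were not tested. Of 43 named starts and windows, 30 kept their call in every alternative run and none changed direction. Each left-out fit has a group of 2 libraries and fewer degrees of freedom.

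With replicate numbers as a block, windows gave 1367 lower and 12790 higher, gene starts 1742 and 866, and RNA 4323 lower and 4089 higher; Hoxc4 alone among named starts lost its call. Per-library differences, such as 0.81 for peaks and -4.50 for wide length, are the same by construction when paired, and the smallest sign-flip p that 3 pairs allow is 0.25. Deviations of same-numbered libraries correlated at 0.0012, -0.013 and -0.00069 over windows. Pairs with different numbers ran from -0.039 to 0.037, so same-numbered pairs did not stand out. These values cannot show whether same-numbered libraries were prepared together.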
